A study of Mus musculus with 6 samples.

Results

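The 6 STAT genes Stat2, Stat3, Stat4, Stat5a, Stat5b and Stat6 are described here by the open chromatin called at them in mouse regulatory T cells (Treg cells). A peak was taken as theirs when its midpoint lay in the gene body, or between genes with one of the 6 as the nearest protein-coding gene within 100 kb. This gave 60 of 74440 peaks, 32 of 38258 in one genotype and 28 of 36182 in the other. Chromatin was probed by ATAC-seq, in which a transposase cuts accessible DNA and tags it for sequencing, in 100000 cells per sample. The cells were CD4+YFP+ cells sorted from spleen and lymph nodes of C57BL/6 mice, 3 samples with the genotype Bcl11b w/w (WT) and 3 with Bcl11b f/f (KO). Both genotypes carried Foxp3-IRES-YFP-Cre, so Cre and YFP marked cells that had transcribed Foxp3, and the WT cells carried the Cre too. The labels give neither the floxed part of Bcl11b, a zinc-finger factor of T cells, nor the age of the mice. The 3 samples of a genotype were deposited as 1 common peak list, without read counts. Depth and the spread between replicates are therefore unknown, and no difference below carries a p-value.

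STAT proteins lie latent in the cytoplasm until a cytokine receptor and its JAK kinases phosphorylate them. They then pair, enter the nucleus and bind DNA. In Treg cells the Stat5 proteins carry the IL-2 signal that sustains Foxp3, and Stat3 carries signals of IL-6 and IL-10 and is needed by Treg cells to restrain Th17 responses. Stat4 acts downstream of IL-12 and Stat6 downstream of IL-4, in Th1 and Th2 differentiation, and Stat2 serves the type I interferon receptor.

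Start-site sequence was at hand for 9 listed starts of the 6 genes (RefSeq, GRCm38.p6, the assembly of mm10), and 6 of these windows were overlapped by a peak in both lists. The paralogous genes Stat5a and Stat5b are shown first because a peak of each list covered all 63 bases of a stretch they have in common. It lies at chr11:100860412-100860474 on the plus strand, 72 to 10 bases before the second listed start of Stat5a, and at chr11:100822571-100822633 on the minus strand, 63 to 1 bases before the inner start of Stat5b. The copies match at 53 of 63 positions (84.1%), and capitals mark the 10 that differ.
Stat5a: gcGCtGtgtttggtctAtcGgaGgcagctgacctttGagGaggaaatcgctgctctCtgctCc
Stat5b: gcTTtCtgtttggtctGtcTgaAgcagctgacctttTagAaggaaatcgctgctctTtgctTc
The printed stretch ends before the Stat5b start. It is part of a longer gap-free block of 71 bases, 61 of them identical (85.9%), that runs past this start. The local alignment holding that block had a score of 56, the highest among the 36 pairs of these 9 windows, against 19 for the next pair.

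The upstream sequences of Stat2, Stat6 and Stat3 show where the peaks of the 2 genotypes met. Each runs from 250 bases before the start to the base before it, and capitals mark bases inside a WT and a KO peak alike. They lie at chr10:128270248-128270497 (plus strand) for Stat2, chr10:127642736-127642985 (plus strand) for Stat6 and chr11:100939541-100939790 (minus strand) for Stat3.
Stat2: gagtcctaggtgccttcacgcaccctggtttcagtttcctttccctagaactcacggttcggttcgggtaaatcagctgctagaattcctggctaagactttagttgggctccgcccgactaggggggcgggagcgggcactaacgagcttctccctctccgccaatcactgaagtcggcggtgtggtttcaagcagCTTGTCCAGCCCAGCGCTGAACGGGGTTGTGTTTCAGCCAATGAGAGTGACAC
Stat6: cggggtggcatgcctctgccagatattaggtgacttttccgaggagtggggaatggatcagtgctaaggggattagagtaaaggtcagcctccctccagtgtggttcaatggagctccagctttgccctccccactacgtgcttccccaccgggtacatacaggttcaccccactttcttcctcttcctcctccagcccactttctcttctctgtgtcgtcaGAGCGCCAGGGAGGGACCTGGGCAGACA
Stat3: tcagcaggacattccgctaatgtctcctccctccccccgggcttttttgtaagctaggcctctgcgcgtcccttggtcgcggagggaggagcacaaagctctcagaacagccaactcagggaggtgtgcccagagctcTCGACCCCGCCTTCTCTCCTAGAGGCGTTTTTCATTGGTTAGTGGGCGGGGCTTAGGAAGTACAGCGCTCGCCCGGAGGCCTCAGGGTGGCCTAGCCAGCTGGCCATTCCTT
The WT and KO peaks had 112 of these bases in common at Stat3, 53 at Stat2 and 28 at Stat6. At Stat2 and Stat6 the KO peak covered more of the upstream sequence, 180 and 188 bases, than the WT peak, 53 and 28 bases. At Stat3 the order was the opposite, with 112 bases in the KO peak and 164 in the WT peak.

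Most STAT peaks were called in both genotypes. Of the 32 WT peaks, 24 overlapped a KO peak by at least 1 bp and 8 did not (25%, exact Clopper-Pearson 95% interval 11.5 to 43.4%), where 29.5% of all WT peaks had no overlap. Of the 28 KO peaks, 23 overlapped a WT peak and 5 did not (17.9%, 6.06 to 36.9%), where 25.4% of all KO peaks had none. Both shares hold the value of the whole list within their interval, which covers counting error only. A peak without overlap is called WT-only or KO-only below. This is the absence of a call, not a measurement of closed chromatin.

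**Figure D1:**
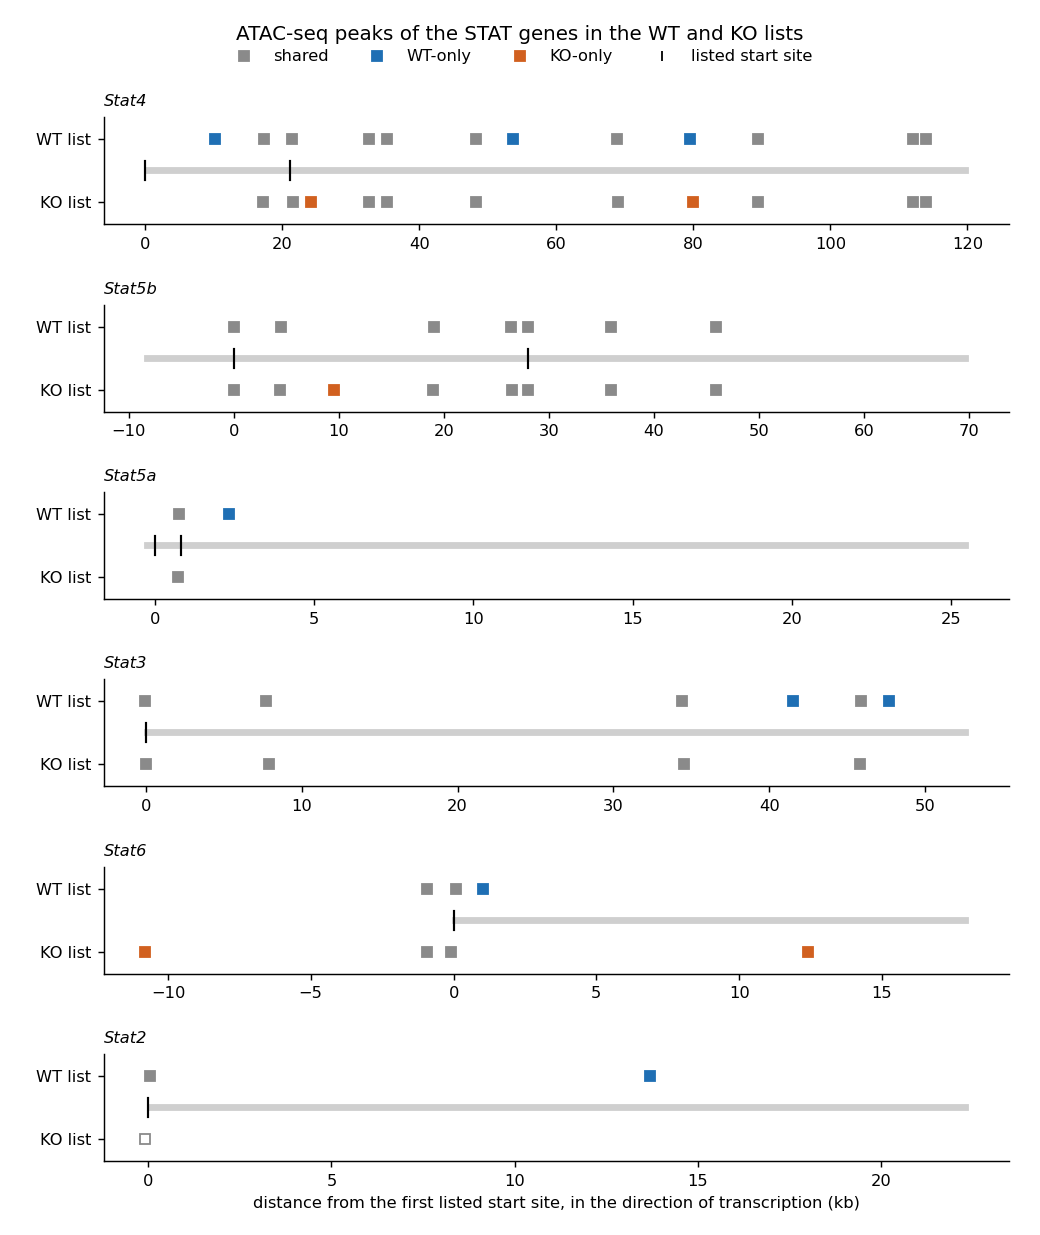
Position of each STAT peak (squares at the peak midpoint; WT list above and KO list below the grey gene body) by distance in kb from the first listed start site in the direction of transcription; black ticks are listed starts and the x axis differs between genes. The open square is a KO peak that overlaps a WT peak of Stat2 but has its midpoint before the gene. Grey shared peaks line up in both lists, beside 8 WT-only and 5 KO-only peaks.

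None of the 13 genotype-specific STAT peaks had its midpoint within 1 kb of a listed start of a protein-coding gene, against 8 of 24 shared WT peaks and 7 of 23 shared KO peaks. Over all peaks on chromosomes with listed starts, 10.6% of WT-only and 14.1% of KO-only peaks lay that near, and 31.5% of shared peaks did in either list. A WT-only peak of Stat6, at 1032 bp, fell just outside the 1 kb window. With only 8 and 5 peaks, a count of 0 is close to those shares, and nothing particular to the family is read from it. The family was mostly intragenic. Gene bodies held 30 of 32 WT and 25 of 28 KO peaks, against 60.5% and 59.7% of all peaks assigned to a gene by the same rule on chromosomes with listed starts. Stat2 and Stat6 have a gap of 0 bp to a neighbouring gene (Apof and Nab2), and Stat5b, Stat5a and Stat3 lie side by side. How far this spacing sets the share was not tested. The peaks lying farthest and nearest outside were a KO-only one 10793 bp beyond Stat6 and a WT one 1 bp beyond Stat3.

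Stat5b, Stat5a and Stat3 lie side by side on chromosome 11 and together held 15 WT and 13 KO peaks, of which 12 in each list were shared. Stat5b (chr11:100780731-100859004, minus strand) had 7 WT and 8 KO peaks. All 7 WT peaks were shared. They included the peak at the outer listed start (WT 100850410 to 100850628, midpoint at 62 bp) and the one over the inner start (100822500 to 100822718, midpoint at -39 bp), whose upstream sequence is printed above. The single genotype-specific peak was KO-only, at 100840923 to 100841115, 9.56 kb into the gene and 4900 bp from any WT peak. Stat5b was the only one of the 6 genes with no WT-only peak.

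Stat5a (chr11:100859351-100885169, plus strand) had 2 WT peaks and 1 KO peak. The shared peak (WT 100860311 to 100860529, KO 100860298 to 100860490) covered the second listed start and the stretch in common with Stat5b. No peak overlapped the window of the first listed start, which lies 764 bp before the midpoint of that WT peak. The other WT peak was WT-only, at 100861870 to 100862088, 1495 bp past the second start. Assigned instead by the nearest listed start, KO-only minus WT-only peaks came to -3 at Stat5a, where the main rule gave -1. The 2 WT-only peaks near the far end of Stat3 lie closer to that start than to the Stat3 start.

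Stat3 (chr11:100886806-100939594, minus strand) had 6 WT and 4 KO peaks, and all 4 KO peaks were shared. Its start-site peak (WT 100939486 to 100939704, KO 100939460 to 100939652) stood earliest in both lists of all STAT peaks. Of the WT-only peaks, the one at 100891773 to 100891991 lay 1606 bp and the one at 100897945 to 100898163 lay 4154 bp from the nearest KO peak. Another pair touched by only 8 bp (WT 100931745 to 100931963, KO 100931560 to 100931752), so its shared status rests on the overlap rule.

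Stat4 (chr1:51987106-52107189, plus strand) had the most peaks of the family, 12 in the WT list and 11 in the KO list, all of them inside the gene. Of these, 9 in each list were shared. No peak of either list lay at the first listed start. The nearest WT peak had its midpoint at 10105 bp and the nearest KO peak at 17238 bp. Neither did a peak overlap the window of the second listed start, but a shared peak stood just downstream of it, with midpoints at 265 bp (WT) and 425 bp (KO). The WT-only peaks stood at 51997144 to 51997362, 52040591 to 52040809 and 52066533 to 52066751, and the KO-only peaks at 52011287 to 52011479 and 52066921 to 52067113. The last of each were only 169 bp apart and count as shared when a gap of up to 500 bp is allowed. They were the only genotype-specific STAT peaks that near to the other list. The remaining ones lay 918 to 13572 bp from it.

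Stat6 (chr10:127642955-127660987, plus strand) had 3 WT and 4 KO peaks. A pair of shared peaks marked its start: one with midpoints at -942 bp (WT) and -917 bp (KO), and one at 81 bp (WT) and -92 bp (KO), which overlapped by 33 bp. Of the genotype-specific peaks, the WT-only one (127643909 to 127644127) followed the start, whereas the KO-only ones lay at -10.8 kb (127632066 to 127632258) and at 12.4 kb (127655308 to 127655500). Stat2 (chr10:128270498-128292853, plus strand) had 2 WT peaks and no KO peak by the rule. Its start was nevertheless covered in both lists. The KO peak there (128270318 to 128270510) overlapped the WT peak (128270445 to 128270663) by 66 bp but had its midpoint at -84 bp, in Apof, a gene that overlaps the first bases of Stat2. The other peak, at 128284083 to 128284301, was WT-only and stood at 99.5% of the way down the WT list.

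**Figure D2:**
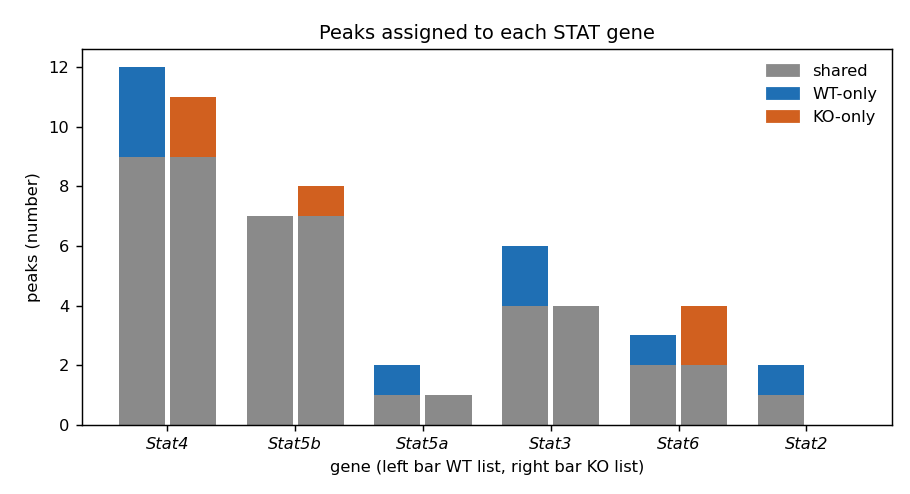
Number of peaks assigned to each STAT gene (y axis) in the WT list (left bar) and the KO list (right bar), split into shared peaks and peaks of 1 list alone. Shared peaks make up most of every bar of Stat4, Stat5b and Stat3, and Stat5b has no WT-only part.

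Set against gene length, the longer STAT genes were dense in peaks. Stat4 had 0.999 WT and 0.916 KO peaks per 10 kb of gene body, Stat5b 0.894 and 1.02, and Stat3 0.947 and 0.758. Over 3484 protein-coding genes of 50 to 150 kb the median was 0.183 in the WT list and 0.169 in the KO list. A WT density as high as at Stat4 was found at 1.29% of those genes, as at Stat3 at 1.84% and as at Stat5b at 2.55%. In the KO list the corresponding shares were 2.27%, 4.16% and 1.15%. These genes include ones that Treg cells may not use, so the ranking is a description. Of the genes flanking the family, Cavin1 next to Stat3 had 2 WT-only peaks and no other. Ghdc next to Stat5b had 1 shared peak, and Il23a next to Stat2 had none. Over 21896 protein-coding genes, 35.5% had 2 or more WT peaks. On the sides of Stat6, KO-only peaks numbered 2 at Lrp1 and 2 at Nab2, WT-only peaks 1 at each, and shared peaks 2 at Lrp1 and 1 at Nab2.

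The lists are not sorted by position, and their row order was used as a rank. That it follows peak strength is inferred, not stated in the labels. Peaks without overlap became more frequent down the lists, from 5.15% in the first 25% of the WT list to 62.4% in the last 25% and from 7.39% to 47.6% in the KO list. Place is given below as the percent of rows passed, so a low value is early. Of the 7 STAT peaks in the last 25% of the WT list, 5 were WT-only, near the 62.4% of all peaks there. The median place of the 8 WT-only STAT peaks was 88.5%. Over all WT-only peaks on chromosomes with listed starts it was 76.8%. The earliest was the one just past the Stat6 start, at 43.1%. The 5 KO-only peaks stood between 54.4% and 98.8%. In the first 50% of the lists, 1 WT-only and 0 KO-only STAT peaks were thus found, beside 16 shared WT and 14 shared KO peaks. Over all peaks on chromosomes with listed starts, 17.6% of WT-only and 25.6% of KO-only peaks were in the first 50%.

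Shared STAT peaks changed place about as much as shared peaks did everywhere. Over 24 pairs the median size of the change was 8.72 percentage points, against 7.53 over 26975 pairs. Of the 24, 16 stood later in the KO list (66.7%, against 62.1% of all pairs), so the excess of later places is common to the lists. At the Stat3 start the places were nearly equal, 3.69% (WT) and 3.55% (KO). At the Stat5a start the peak moved forward, from 16.3% in the WT list to 9.53% in the KO list. At Stat5b, 6 of 7 shared peaks stood later in the KO list. The one 4.46 kb past its outer start went from 11% to 28.7%, and the start-site peaks went from 29.1% to 38.7% and from 26% to 36.7%. The exception at Stat5b was the peak at 100814549 to 100814767, which went from 42.3% to 24.1%.

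The largest change of place in the family was inside Stat4, at 52004366 to 52004584, between its listed starts. This peak stood at 30.5% of the WT list and its KO partner (52004290 to 52004482) at 68.6%, a change of 38.1 points. Of 3365 shared pairs within 5 points of the same WT place, 2.2% moved back as far or farther. The peak is named as the largest of 24, after its value was seen. Other Stat4 peaks moved less: the one past its second start went from 20.7% to 35.2%, and the earliest one, at 52019711 to 52019929, from 18.7% to 19.3%. The Stat3 peak at 100905055 to 100905273 moved the other way, from 92.7% in the WT list to 67.5% in the KO list.

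**Figure D3:**
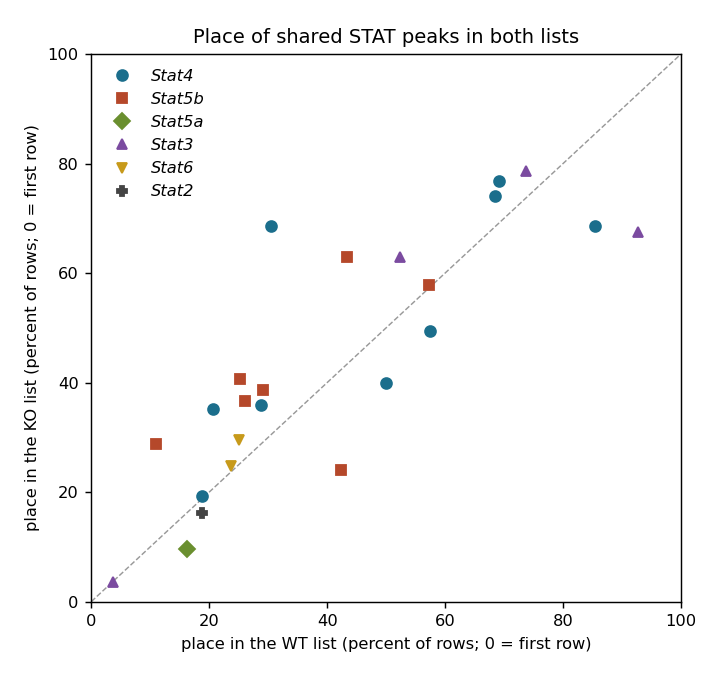
Place of the 24 shared STAT peaks in the WT list (x axis) and of their partner in the KO list (y axis), both as percent of rows from the top; the dashed line marks equal places. Of the 24 points, 16 lie above the line, and the Stat4 point at 30.5% and 68.6% lies farthest from it.

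The midpoints of shared STAT peaks differed by a median of 42.5 bp between the lists, against 31 bp over all shared pairs. A shift over 150 bp was found at 3 of the 24 pairs (12.5%, against 5.46% of all pairs): the Stat3 peak with the overlap of 8 bp (198 bp), the Stat6 start (173 bp) and the peak past the second Stat4 start (160 bp). At the starts of Stat6 and Stat2 the KO midpoint lay before the start and the WT midpoint after it. Among 8245 shared pairs within 1 kb of a listed start, 531 had this arrangement and 297 the reverse, and the median shift was -2 bp in the direction of transcription. Of the 388 such pairs shifted by over 150 bp, 109 had this arrangement and 110 the reverse. The 2 lists also differ in peak width, 219 bp for nearly all WT and 193 bp for nearly all KO peaks, which changes how far a shifted peak still overlaps. When at least 50% of the narrower peak had to overlap, WT-only STAT peaks numbered 13 and KO-only peaks 9. The share of all peaks under this rule is not given here. These counts therefore cannot be set against the 29.5% and 25.4% found with an overlap of 1 bp.

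The start-site windows, of 300 bases each (250 before the start and 50 from it on), were searched on both strands for 9 short motifs. The GAS motif TTCNNNGAA, the form that most STAT dimers bind, was in 0 of the 9 STAT windows and in 8.3% of 32851 windows of all genes. Its wider form, with 4 bases in the middle, was in the Stat2 window and in 6.95% of all. The IRF pattern GAAANNGAA was in 2 windows, of Stat2 and of the second Stat4 start (8.56% of all), and none of these matches lay in a peak. The ETS core AGGAAG was in 6 windows, against 35.4% of all: at Stat3, Stat6 and both starts of Stat5a and of Stat5b. The matches at the second Stat5a start and the inner Stat5b start hold the same position in the aligned block of 71 bases. The windows of these paralogous genes are therefore not independent, and no excess is read from the count. RUNX (TGTGGT) was in 3 (16.8% of all), forkhead (TGTTTA, 13.4%), TCF (CTTTGA, 16%) and the CTCF core (AGGGGGC, 10.6%) in 1 each, all of Stat5a, and AP-1 (TGANTCA, 7.81%) in 0. No match overlapped that of another motif. At Stat6 the RUNX match and both ETS matches lay inside the KO peak and outside the WT peak. So did the RUNX match of Stat2 and the ETS match at the outer start of Stat5b. All of these peaks belong to shared pairs, and the difference lies in where the called edges fall. The WT peak at the outer Stat5b start ended at 100850628, and the match began at 100850633. Without read counts, no difference in access is read from these matches. The ETS matches at Stat3, the second start of Stat5a and the inner start of Stat5b were covered in both lists. A match is a string of letters and does not show binding.

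Around the STAT genes, 43 other genes of the pathway had as many WT-only as KO-only peaks within counting error. They held 48 WT-only and 46 KO-only peaks, a KO-only share of 48.9% of genotype-specific peaks (38.5 to 59.5%) against 45.4% over all assigned peaks. The 6 STAT genes themselves had 8 and 5 (38.5%, 13.9 to 68.4%). WT-only peaks were more numerous at 11 of the 43 genes, KO-only peaks at 11, and 21 had equal numbers. Over 14669 genes with a peak, WT-only peaks led at 26.8% and KO-only peaks at 20.2%, and the median difference was 0 in both sets. Every one of the 43 had a peak in both lists. Of all 21896 protein-coding genes, 14669 had a peak in at least 1 list by the same rule.

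Among the kinases, Jak1 had 8 shared peaks beside 6 that were KO-only and 4 that were WT-only. Jak2 had 4 shared peaks beside 1 and 2, and Jak3 and Tyk2 had a single shared peak each. Several Jak1 peaks counted as genotype-specific were near neighbours. The WT peak at chr4:101293148-101293366 lay 19 bp from the KO peak at chr4:101292936-101293128. Other WT and KO pairs at Jak1 lay 25 bp and 176 bp apart. Some of its genotype-specific peaks lay 27.8 to 48.4 kb outside the gene. The KO-only surplus at Jak1, 2 by the main rule, was 1 in gene bodies alone, 1 within 10 kb and 0 in the first 50% of the lists. Over the 18 receptor genes there were 24 WT-only and 19 KO-only peaks. The KO-only share was 44.2% (29.1 to 60.1%), against 45.4% over all assigned peaks. Il21r, the IL-21 receptor, had 2 WT-only and 0 KO-only peaks, Il6st, the signalling chain gp130, had 3 and 1, and Ifngr1, of the interferon gamma receptor, 3 and 1. All of these Ifngr1 peaks lay outside the gene, the WT-only ones by 3.31 to 72.9 kb and the KO-only one by 14.2 kb. KO-only minus WT-only peaks at Ifngr1 came to 0 in gene bodies alone and 0 with every gene of the annotation competing. The direction turned in the first 50% of the lists, where this difference was 1.

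Over the 17 feedback genes 15 peaks were WT-only and 19 were KO-only. The KO-only share of 55.9% (37.9 to 72.8%) has an interval that holds the 45.4% of all assigned peaks. KO-only peaks led at 7 of the 17 genes and WT-only peaks at 3, and 7 had equal numbers. Over the 14669 genes with a peak, KO-only peaks led at 20.2% and WT-only peaks at 26.8%. With 17 genes, no lean of the feedback genes is read from these counts. Socs1, an inhibitor of JAK kinases, had 2 peaks called in the KO list alone, 0 in the WT list alone and 2 in both. The KO-only ones lay 8.93 kb and 14.8 kb outside the gene (chr16:10774783-10774975 and chr16:10768894-10769086), 33.3% and 16.9% of the way down the KO list, earlier than any KO-only STAT peak. The surplus of KO-only peaks at Socs1 was 4 by the nearest listed start, 1 within 10 kb and 0 in the gene body. Socs2, which is induced through STAT5, had 0 shared peaks beside 5 that were KO-only and 3 that were WT-only, but 2 of its WT peaks lay 36 bp and 57 bp from a KO peak, and its difference was -1 within 10 kb and -1 in the gene body. Socs5 had 3 WT-only and 0 KO-only peaks, at places 26.8%, 85.3% and 99.2%, but the earliest of them lay 254 bp from a KO peak. Its difference was -1 within 10 kb and 0 by the nearest listed start. The 4 partner genes had 3 WT-only peaks and 1 KO-only peak, a KO-only share of 25% (0.631 to 80.6%) whose interval also holds 45.4%. Irf9, which joins Stat2 in the interferon complex, had 1 shared peak only.

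**Figure D4:**
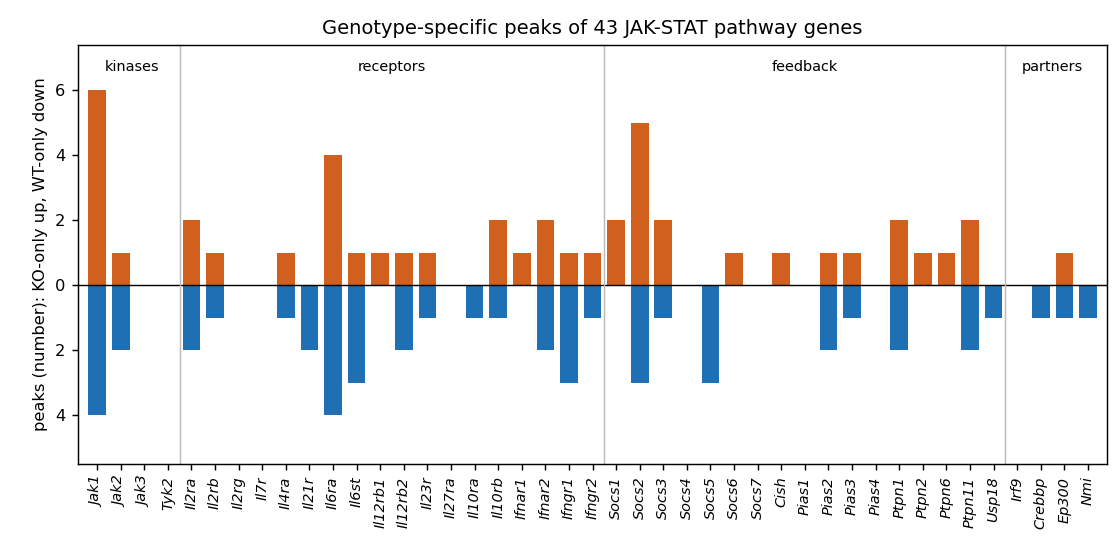
KO-only peaks (orange, upward) and WT-only peaks (blue, downward) at 43 JAK-STAT pathway genes, grouped as kinases, receptors, feedback genes and partners; the y axis is the number of peaks. Jak1 and Socs2 carry the most KO-only peaks, 6 and 5, and also 4 and 3 WT-only peaks.

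The labelled cell type was compared with marker genes. In both lists 4 of 5 Treg markers (Foxp3, Il2ra, Ctla4 and Ikzf2, not Tnfrsf18) and 4 of 4 T cell markers had a peak in the gene or within 1 kb of it. Of other cell types, 1 of 2 CD8, 1 of 4 B cell, 1 of 4 myeloid and 2 of 3 erythroid markers had one in both lists, and of 3 NK markers 2 had one in the WT list and 1 in the KO list. A peak at a marker does not show that it is expressed, and the part of other cells in the STAT peaks was not tested.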

How the data were processed

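ATAC-seq was done on 6 samples, 3 per genotype, and the authors deposited 1 peak list per genotype on mm10. The tools, per the submitters' processing notes, included HOMER 4.10.1, deepTools, HISAT2 2.1.0, SAMtools 1.3, cutadapt 1.12, Trim Galore 0.4.2 and FastQC. Not given in the sources used here: their roles, the peak threshold, a transposase shift and how replicates were joined. The score that the authors deposited is 1 in every row and carries no peak height.

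Overlap, gene assignment and counts were computed with pandas 2.3.3, scipy 1.17.1 and numpy 2.4.6 in Python 3.11.15, windows were aligned with Biopython 1.88 (match 1, mismatch -1, gap opening -3, extension -1), and figures were drawn with matplotlib 3.10.9. Overlap and assignment were tested on simulated peaks against bedtools. Genes came from the RefSeq table of GRCm38.p6, and a midpoint in several genes counted for each. Start sites came from 32851 RefSeq windows, which list a start for 17491 of 21896 protein-coding genes, and shares of peaks near a start leave out chromosome 18. Exons were not used here. Motifs had been planned for whole peaks; with no genome used, start-site windows were searched. Members, gene lists and motifs were chosen with earlier results of these data known. Genes named are the 6 members, their neighbours and pathway genes whose genotype-specific counts differ by at least 2; Jak2, Jak3, Tyk2 and Irf9 were added after their values were seen. The neighbours of Stat4 are not reported here. Alternatives covered the overlap rule, peak width, list length, row order and gene assignment.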

Additional observations from a re-analysis of the deposited data

How the results depend on the processing

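With 1 list per genotype, leaving out a replicate could not be done, and no paired analysis was possible because the lists carry no value per replicate. The STAT counts (8 WT-only, 5 KO-only, 24 shared WT and 23 shared KO peaks) stayed within 1.5 times under 31 of 36 combinations of count and alternative. When at least 50% of the narrower peak had to overlap, they were 13 WT-only and 9 KO-only, without a share of all peaks under this rule beside them. Among peaks in the first 50% of rows, which hold fewer peaks by construction, they were 1 WT-only, 0 KO-only and 14 shared KO peaks. KO-only minus WT-only peaks turned at Stat6 in the first 50% of each list (-1 from 1) and at Ifngr1 there (1 from -2). It turned at Socs2 (-1 from 2) within 10 kb, in gene bodies alone and with every gene of the annotation competing. For the pathway list it turned from -2 to 5 after cutting the WT list to as many peaks as the KO list and to 4 by the nearest listed start. That start-site rule leaves out chromosome 18, and with it the pathway genes Pias2, Ptpn2 and Socs6. Counts this small cannot separate a change of genotype from variation between samples, and sites below the unknown peak threshold are missing from both lists.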
